A study of Mus musculus with 6 samples.

Results

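The read pairs described here are those of the MARIO libraries in which 1 or both RNA fragments carried the annotation type LINE, the long interspersed repeats of the mouse genome. MARIO crosslinks RNAs to the proteins that hold them, ligates neighbouring RNA ends through a biotin-tagged linker and sequences the chimeric product, written RNA1–Linker–RNA2. A read pair was taken when the type of its RNA1 or its RNA2 was LINE, and each LINE end was grouped by its repeat name. Names starting with L1Md formed the young group and all other LINE names the older group. In all, 304302 of 8319389 read pairs qualified in the 4 libraries examined. They were 85064 of 3230403 read pairs in ES-1 and 66058 of 1312314 in ES-2, with 108413 of 3302146 in ES indirect and 44767 of 474526 in MEF.

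ES-1 and ES-2 were separate assays on E14 mouse embryonic stem (ES) cells, strain 129/Ola, grown without feeder cells and crosslinked with 254 nm ultraviolet light. ES indirect came from the same line. Its crosslinkers were EGS and formaldehyde, so that RNAs held by different proteins of a complex could be joined too, and it was sonicated where the others were cut with RNase I. MEF was made from mouse embryonic fibroblasts, C57Bl/6 by their label, with the ultraviolet protocol. Per the labels, the RNA was first cut to about 300 nt in MEF and about 1000 nt in the ES libraries. Depletion of ribosomal RNA used a nuclease for double strands (ES-1, ES indirect) or the GeneRead kit (ES-2, MEF). ES-2 and MEF thus differed in cell type, strain and first fragment size, and ES-1 and ES indirect in crosslinking and the method of cutting. In both comparisons the flow cells differed as well, since ES-1 and ES-2 shared none with ES indirect and MEF. Within either comparison these cannot be told apart. The labels and methods name no altered genotype and no treatment besides crosslinking. With 1 library each for ES indirect and MEF, no difference between groups was tested. ES-1 against ES-2 gives the only spread between assays, their different depletion and a first cut that the methods give as less far in ES-1 included, and all intervals are 95% Wilson intervals, which cover counting error only because read pairs are not independent molecules. The cell types were checked by exonic ends of marker genes per 100000 exonic ends. The ES list, with Pou5f1, Sox2 and Esrrb, reached 496 in ES-1 and 213 in ES-2, then 505 in ES indirect and 36.5 in MEF. Below, lists of 4 values keep this order and lists of 3 values leave out MEF. The fibroblast list, with Col1a1, Col1a2 and Vim, reached 367, 175, 129 and 1375. In the ES libraries Fn1 supplied most of the fibroblast list. Its share of exonic ends was larger in ES-1, with 1025 of 323346, than in MEF, with 81 of 49306. In ES-2, with 235 of 166231, and ES indirect, with 698 of 579193, it was smaller than in MEF.

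L1 elements copy themselves through an RNA intermediate. A complete mouse element holds a promoter region built of tandem repeats called monomers, a first reading frame for an RNA-binding protein and a second reading frame for an endonuclease and reverse transcriptase. L1Md_A, L1Md_T and L1Md_Gf are the names of recent mouse families with members that can still move, whereas Lx, L1_Mus, L1_Mur, L1M and L2 names mark older, mostly truncated copies. L1 RNA is made in early embryos and ES cells. Young copies are nearly identical to each other, so a short RNA fragment from one of them has many equal places in the genome.

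A single ES indirect read pair serves as an example of a read pair with young L1 fragments at both ends. It was picked as a clear case and does not stand for all such read pairs. Whether its fragments were ligated or came from the same uncut RNA was not tested. How often young fragments lay this close on the element is given below. RNA1 was 90 nt long and was stated at chr16:86980449-86980538 on the plus strand. RNA2 was 100 nt long and was stated at chr8:92471446-92471545 on the minus strand. Both carried the name L1Md_A. They were compared with a copy taken for L1Md_A, with both reading frames, at chr2:21917461-21925720, minus strand. On it the 2 fragments fell next to each other at bases 2965 to 3163 of the second reading frame. RNA1 came first and RNA2 second, with 9 bases between them. The stretch of that copy (chr2:21918944-21919142, minus strand, mm9, 199 nt) is shown because it holds both fragments whole, RNA1 in the first run of capitals and RNA2 in the last.

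L1Md_A copy: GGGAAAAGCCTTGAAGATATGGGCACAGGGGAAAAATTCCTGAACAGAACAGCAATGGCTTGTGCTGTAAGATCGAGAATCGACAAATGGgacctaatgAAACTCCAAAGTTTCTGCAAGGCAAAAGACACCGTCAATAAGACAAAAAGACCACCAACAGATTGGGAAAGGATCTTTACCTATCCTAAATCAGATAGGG

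The other sequences are the commonest fragments at some of the busiest LINE places, shown for the ribosomal or linker sequence they hold. Capitals mark bases equal to mm9 at the stated place, and lower case marks the mismatches. The L1Md_T fragment at chr13:9833550-9833616, minus strand, was read 2210 times in ES-1. Its leading 20 bases were also present in 34345 ES-1 fragments that the files name as ribosomal RNA, most often as LSU-rRNA_Hsa, the large-subunit ribosomal RNA. The L1Md_F3 fragment at chr2:90235297-90235343, minus strand, was read 270 times in ES-1 and 321 times in ES-2. Its leading bases stood in 520 ribosomal-named ES-1 fragments. The Lx2 fragment at chr19:40194202-40194248, plus strand, shared its leading bases with 37894 such fragments. The L1M4 fragment at chr1:191213546-191213562, minus strand, and the L1MB8 fragment at chr15:64309170-64309186, minus strand, are 17 nt long and contain pieces of the MARIO linker. They were read 24 and 9 times in ES-1 but 6484 and 1242 times in ES-2.

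L1Md_T, ribosomal: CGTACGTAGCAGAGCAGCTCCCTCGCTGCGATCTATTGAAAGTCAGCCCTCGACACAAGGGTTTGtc
L1Md_F3, ribosomal: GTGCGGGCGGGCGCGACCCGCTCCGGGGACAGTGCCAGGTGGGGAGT
Lx2, ribosomal: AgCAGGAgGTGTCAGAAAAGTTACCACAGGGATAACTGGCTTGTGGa
L1M4, linker: TCATGCAATGCGAGgac
L1MB8, linker: ACATGCAATGCGAGgAc

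Each LINE end was therefore placed in 1 of 6 classes. An end was linker if it held 10 bases of the linker, ribosomal if it held a 16-base run found in at least 20 distinct ribosomal-named fragments, short if under 20 nt, unplaced if over 15% of its bases differed from mm9 at the stated place or over 20% were N, and one base if a single base made up over 80% of it. All remaining ends were called supported. Supported ends made up 17.4% of the 89923 LINE ends of ES-1 (17.2 to 17.7). By side of the linker, the supported share at RNA1 was 15.1%, 7.2%, 63.1% and 1.8%, and at RNA2 it was 20.9%, 9.8%, 84.6% and 1.9%. The ribosomal class was the largest at both sides of ES-1, with 48.9% and 69.2%. It was level with the linker class at RNA1 of ES-2, at 35.9% each, and it was the largest at RNA2 of ES-2, with 73.9%. In MEF the linker class held 71.3% of RNA1 ends and 34.1% of RNA2 ends, where 46.4% were ribosomal. Most ribosomal-class ends did match mm9 at the LINE place they were given, in 82.9%, 78.3%, 81.4% and 77.5% of cases, whereas linker-class ends matched in 30.7%, 27.2%, 34.4% and 37.1%. Values below are given over all ends and over supported ends.

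**Figure D1:**
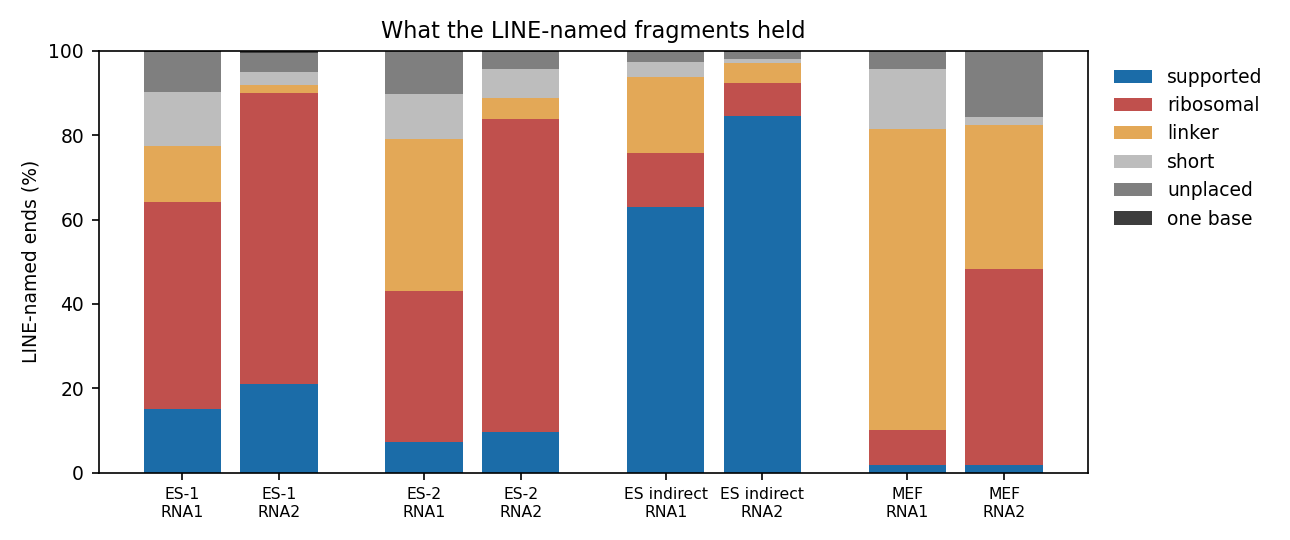
Share of LINE-named ends (%) in each class, for RNA1 and RNA2 of each library; a bar adds to 100%. Supported ends are the largest class at both sides of ES indirect (63.1% and 84.6%) and 20.9% or lower elsewhere.

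As deposited, LINE read pairs were 2.63% of ES-1 (2.62 to 2.65) and 5.03% of ES-2 (5.00 to 5.07), while ES indirect had 3.28% (3.26 to 3.30) and MEF 9.43% (9.35 to 9.52). Counting only read pairs with a supported LINE end changed the order. The shares became 0.352% in ES-1 (0.346 to 0.359) and 0.315% in ES-2 (0.305 to 0.324), with 2.1% in ES indirect (2.09 to 2.12) and 0.152% in MEF (0.141 to 0.163), so MEF went from the highest to the lowest. These shares also follow how many ends were supported, since all read pairs were the denominator. In these bulk samples a larger share of cells with LINE RNA and more LINE RNA per cell cannot be told apart either. Both fragments were supported in 450767, 54641, 1336117 and 10260 read pairs. Among those, the share with a LINE end was 1.87%, 4.74%, 4.65% and 3.03%, with ES-1 the lowest. Collapsing equal coordinates raised the share in ES indirect to 5.78%, 1.76 times its uncollapsed value, while ES-2 stayed at 5.02%.

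The files held between 111 and 119 LINE names per library. As deposited, the leaders in ES-1 and ES-2 together were L1Md_T, L1Md_F3, L1_Mur3, L1Md_F2, L1M4, Lx8, Lx2, Lx9, Lx7 and L1Md_A. Among supported ends the leaders were L1Md_A, L1Md_F2, L1Md_T, L1_Mus1, L1_Mus3, Lx8, Lx5, L1Md_F3, Lx2 and Lx. L1Md_A had 2703 ends in ES-1, of which 93.2% were supported. L1Md_T had 20350 ends in ES-1, of which 10.1% were supported and 87.3% lay in a single 1 kb bin. L1Md_F3 had 9096 ends in ES-1, with 4.9% supported and 93.6% in a single bin. L1M4 showed the widest gap between the ES assays among these leaders, with 245 ends in ES-1 and 7987 in ES-2, where 98.7% lay in a single bin and 13 ends were supported. Once restricted to supported ends, L1M4 was 0.40% of ES-1 and 0.24% of ES-2.

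Among supported ends L1Md_A, L1Md_T and L1Md_F2 were the leading families in every ES library, but their order differed, with L1Md_A first in ES-1 and L1Md_F2 first in ES-2. L1Md_A was 16.1% of supported LINE ends in ES-1 (15.5 to 16.6) and 9.34% in ES-2 (8.6 to 10.1), with 16.3% in ES indirect (16.1 to 16.5) and 10.3% in MEF (8.48 to 12.5). L1Md_T was 13.1%, 9.99%, 14.9% and 5.46%. L1Md_F2 lay between 12.3% and 13.02% in all 4 libraries. L1Md_F3 was 2.83%, 2.86%, 2.72% and 12.9%, and in MEF 84.7% of its supported ends fell in the chromosome 2 bin of the ribosomal-like fragment above. L1Md_F stayed between 1.52% and 1.99%. L1Md_Gf did not pass 0.85% in any library.

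The young group as a whole made up 43.5% of all LINE ends in ES-1 (43.2 to 43.8) and 33.0% in ES-2 (32.7 to 33.4), with 42.9% in ES indirect and 24.3% in MEF. Over supported ends its share was 46.8% (46.0 to 47.5), 37.2% (36.0 to 38.5), 49.8% and 42.7%. The difference of ES-1 and ES-2 held within both flow cells they share, with supported shares of 46.2% and 47.2% against 37.5% and 36.9%. In ES indirect the supported share differed between its flow cells, at 44.6% and 61.6%, and in MEF the share of all ends differed, at 34.9% and 11.2%. Rodent and mouse L1 names other than L1Md had 43.3% of supported ends in ES-1 and 49.3% in ES-2, where they exceeded the young group. Older mammalian L1 had 7.76% and 10.5%, and L2 had 1.65% and 2.15%.

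**Figure D2:**
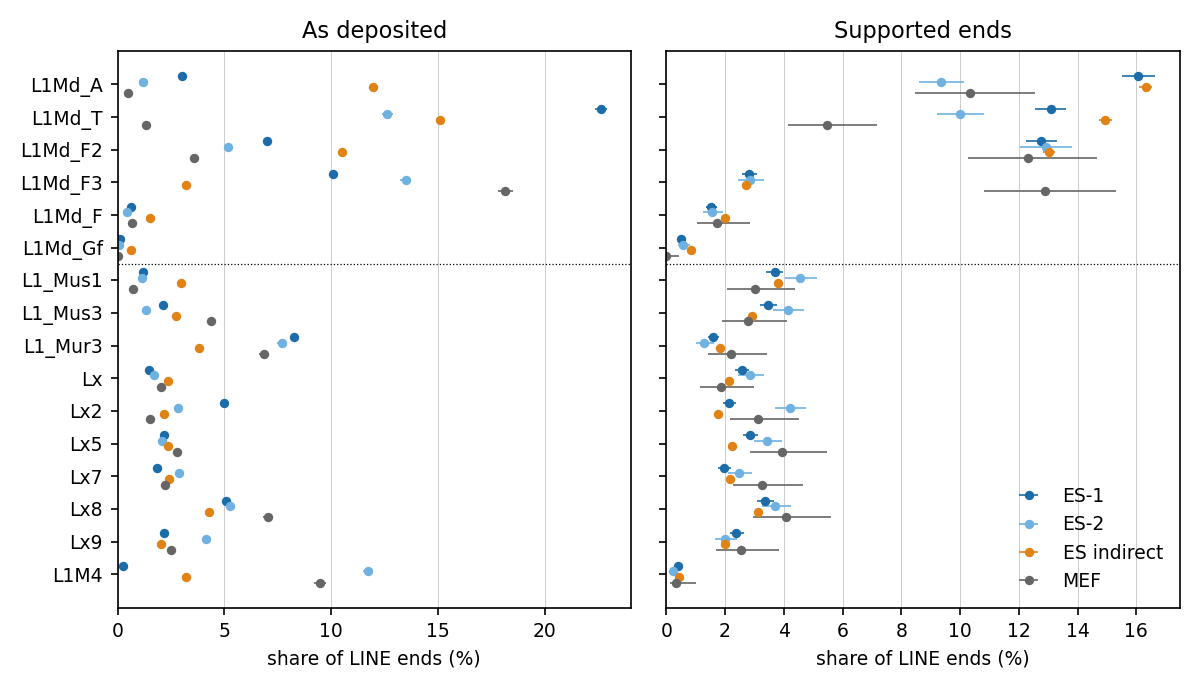
Share of LINE ends (%) by family over all ends as deposited and over supported ends, with 95% Wilson intervals; families above the dotted line are the young L1Md names. As deposited L1Md_T is highest in ES-1 and ES indirect and L1Md_F3 in ES-2 and MEF, and L1Md_A, L1Md_T and L1Md_F2 lead the supported ends of the 3 ES libraries.

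Supported fragments were long in the ES libraries, with a median of 90 nt for young and for older families, against 26, 21 and 22 nt for ends that were not supported in ES-1, ES-2 and ES indirect. In MEF, where the RNA was first cut shorter, the supported medians were 37 nt for young and 27 nt for older families. The leading 50 bases of a young fragment that matched mm9 exactly did so at a median of 527 places in ES-1 and 221.5 in ES-2, with 417 in ES indirect and 10 in MEF. The MEF value rests on 74 fragments. For older families the median was 1 place in every library, and 84.7%, 87.3%, 84.0% and 82.8% of those fragments had a single place. Over the leading 25 bases the young medians were 3024, 2568, 2345 and 351 places, the last from 184 fragments. Judged by the leading 50 bases alone, the stated coordinate of a young fragment is usually 1 of many equal ones. This bears on every statement below about distance and about the gene, intron or strand in which young sequence was placed. The family name goes with the stated place, so the L1Md name of a young fragment can be uncertain too, above and below. The whole fragments were not searched in this way. The LINE type covered almost only copies outside annotated genes, since 0.264%, 0.283%, 0.908% and 0.454% of LINE ends had their midpoint inside a GENCODE gene. A fragment from an intronic copy carries the name of its gene instead.

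The busiest places differed in class from the rest. The chromosome 13 bin of L1Md_T (chr13:9833001-9834000) held 14263, 7453, 5474 and 415 distinct coordinate pairs, of which 1, 0, 9 and 1 were supported. The chromosome 2 bin of L1Md_F3 (chr2:90235001-90236000) held 6763, 8346, 1444 and 5197, with 5, 10, 8 and 45 supported. The L1_Mur3 bin at chrX:21257001-21258000 and the L1Md_F2 bin at chrX:31247001-31248000 were ribosomal in over 99% of their ends as well. In contrast, most bins with supported ends held a single distinct pair, at 76.9%, 79.5%, 69.0% and 89.3% of bins. The L1_Mus3 bin at chr7:130035001-130036000 was the busiest supported bin of ES-1 and ES indirect, with 106, 74, 369 and 2 distinct pairs. The L1MA8 bin at chr8:118177001-118178000 had 86, 159, 0 and 5, and the Lx2 bin at chr17:61486001-61487000 had 52, 106, 17 and 15. These 3 older loci ranked highest in both ultraviolet ES libraries.

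To see which part of the element was captured, supported young fragments were aligned to 6 reference copies with both reading frames, 1 per L1Md name. Each ran from 2500 nt before the first frame to 800 nt after the second. A copy took the name of fragments stated near it, so its own family was not checked. At least 85% identity over 80% of the fragment was asked for. In ES-1 6652 of 7336 young fragments were placed, in ES-2 1707 of 2056, in ES indirect 47428 of 51342 and in MEF 223 of 368. The region before the first frame, which includes the monomers, took 28.1% of placed fragments in ES-1 (27.0 to 29.1) and 29.2% in ES-2 (27.1 to 31.4), with 41.9% in ES indirect (41.5 to 42.4). The second frame took 40.9%, 36.3% and 37.1%. The first frame took 16.4%, 12.6% and 8.66%, and the end of the element after the second frame took 13.8%, 21.4% and 11.9%.

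Sense to the element was commoner than antisense. Of all placed young fragments, 71.6% were sense in ES-1 (70.5 to 72.7) and 59.0% in ES-2 (56.6 to 61.3), with 64.8% in ES indirect (64.3 to 65.2). Before the first frame the sense share was 76.2%, 72.5% and 80.1%, and in the first frame 80.5%, 54.9% and 59.6%. In the second frame it was 71.2%, 56.2% and 53.0%, and after the second frame 51.2%, 47.3% and 51.8%, where only the ES indirect interval stayed clear of equal shares of both senses. Families, by the name of the fragment and not of the copy, differed in the region before the first frame. L1Md_A fragments there were sense in 95.9% of 941 cases in ES-1 (94.4 to 96.95) and 87.4% of 183 in ES-2 (81.8 to 91.5), with 91.6% of 10455 in ES indirect (91.0 to 92.1). L1Md_T had 73.9%, 67.8% and 74.0%. L1Md_F2 had 43.8% (38.2 to 49.5), 55.5% (46.1 to 64.4) and 54.1% (52.0 to 56.1), so that its ES-1 interval lay below 50% and its ES indirect interval above.

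Position before the first frame is less certain than elsewhere, because 31.1%, 37.7% and 44.3% of the fragments placed there had another equally good place on the same copy, and the one nearest the start was kept. From the first frame on, that share was at most 0.457% in any region of these libraries. The step 3600 to 3400 nt before the second frame, at the 5′ end of the reference copies, held 734 sense fragments in ES-1 and 118 in ES-2, with 5362 in ES indirect, of which 33.4%, 80.5% and 49.5% had such a tie. MEF strands could not be read in this way, because supported exonic ends of known genes were sense in 26.1% of cases at RNA1 and 84.4% at RNA2. No sense or antisense result is therefore drawn from MEF.

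**Figure D3:**
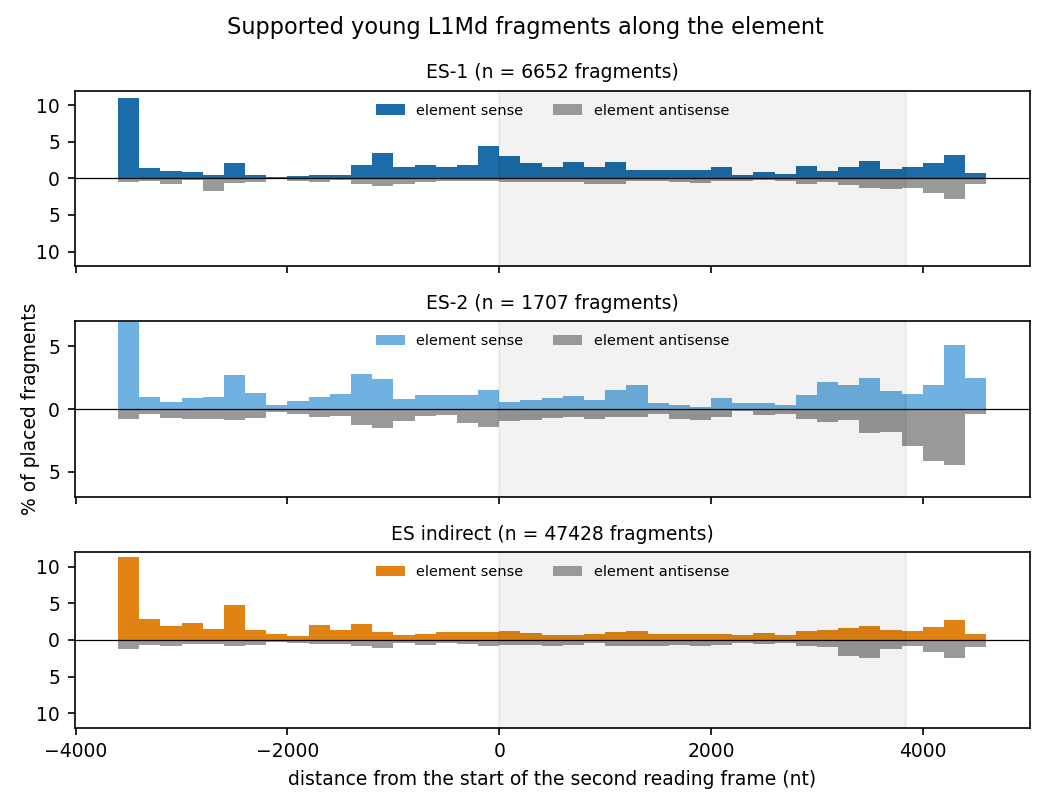
Share of placed young fragments (%) in 200 nt steps along the element, sense above and antisense below the line, for ES-1, ES-2 and ES indirect; the x axis is distance from the start of the second reading frame, which is shaded. The highest sense step of each library is at the 5′ end of the reference copies, and after the second frame the sense share is 51.2%, 47.3% and 51.8%.

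Once both fragments were supported, the partner of a LINE end was most often another LINE end. Pairs whose fragments may come from the same uncut RNA are counted here. Of the partners of supported LINE ends, 67.7% were LINE in ES-1 and 69.9% in ES-2, with 70.2% in ES indirect and 62.4% in MEF. LINE made up 1.41%, 3.64%, 3.58% and 2.20% of all ends in read pairs of that kind. A read pair with LINE at both ends counts with both its ends here. Without pairs whose stated places were within 2 kb of each other, LINE was still the partner of young ends in 65.5%, 69.6%, 68.9% and 66.1%, but of older ends in 32.2%, 38%, 42.0% and 48.6%. The next partner class of older ends was then snoRNAs in ES-1, with 29.0%, and protein-coding genes in ES-2, ES indirect and MEF, with 22.0%, 37.2% and 20%. As deposited, the picture was another, with ribosomal RNA as the partner in 50.4%, 59.6%, 18.6% and 19.7% of cases, against 53.1%, 54.0%, 46.7% and 29.8% of all ends.

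The LINE–LINE read pairs with both fragments supported numbered 4315 in ES-1 and 1393 in ES-2, with 33639 in ES indirect and 141 in MEF. Both ends carried the same family name in 75.9% (74.6 to 77.1), 77.3% (75.04 to 79.4), 78.4% (78.0 to 78.8) and 66.7% (58.5 to 73.9). The frequencies of the names at both sides predicted 7.21%, 5.90%, 7.69% and 8.84%. In 54.1%, 61.8%, 51.3% and 36.9% the stated places were within 2 kb of each other. Without these near pairs the self-family share was 54.6%, 50.2%, 62.8% and 52.8%, where the name frequencies predicted 20.7%, 17.2%, 22.6% and 14.8%. Of the near pairs, 2334 of 2335, 860 of 861 and 17264 of 17269 had both fragments on the same strand.

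Stated distances differed between older and young families. Pairs of 2 older ends were mostly 1 to 200 bp apart, in 70.6% of 2122 pairs in ES-1 and 74.8% of 769 in ES-2, with 65.3% of 15863 in ES indirect. Nearly all of these ran 5′ to 3′ from RNA1 to RNA2, in 99.6%, 100% and 99.0% of those on the same strand. The 2 ends lay on different chromosomes in 6.03%, 7.28% and 4.003%. Pairs of 2 young ends were stated on different chromosomes in 73.5% of 1960 pairs in ES-1 and 66.3% of 540 in ES-2, with 76.1% of 16165 in ES indirect. Only 15.6%, 21.1% and 12.03% were 1 to 200 bp apart. For its RNA structure analysis the paper removed same-gene pairs that might be intact RNA. No such filter was applied here, and whether close fragments came from the same uncut RNA was not tested.

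On the element, however, the distant young pairs lay close together. Of 1493 pairs in ES-1 that were not within 2 kb in mm9 and had both fragments placed on a reference copy, 95.8% had both fragments in the same sense of the element. The figure was 95.5% of 355 in ES-2 and 97.2% of 12675 in ES indirect, where the sense shares of each side alone predicted 58.8%, 50.002% and 56.0%. In the same sense and with at most 200 nt between the nearest ends of the placed fragments were 80.3%, 72.4% and 64.2%. Over all combinations of an RNA1 and an RNA2 of those read pairs the share was 6.30%, 5.34% and 6.16%. RNA2 lay 3′ of RNA1 in 87.7% of the close pairs in ES-1 (95.1% with equal coordinates collapsed) and 97.3% in ES-2, with 89.3% in ES indirect. The printed L1Md_A pair is 1 of these. Here too it was not tested whether both fragments came from the same uncut RNA.

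The same held where ties were rare. With both fragments from the first frame on, the same sense was found in 98.9% of 1000 pairs, 99.3% of 268 and 99.2% of 6326, and 89.1%, 85.4% and 84.1% were within 200 nt. Distant young pairs shared a run of 15 bases in 255 of 1556 cases in ES-1 and 18 of 383 in ES-2, with 1476 of 13399 in ES indirect, each in the same sense. Complementary runs of that length were found in 0 of these pairs, which allows a share of up to 0.193%, 0.783% and 0.0224%. In MEF 26 of 57 distant young pairs shared a run of 15 bases, all of them complementary by the stated strands, which could not be read there.

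**Figure D4:**
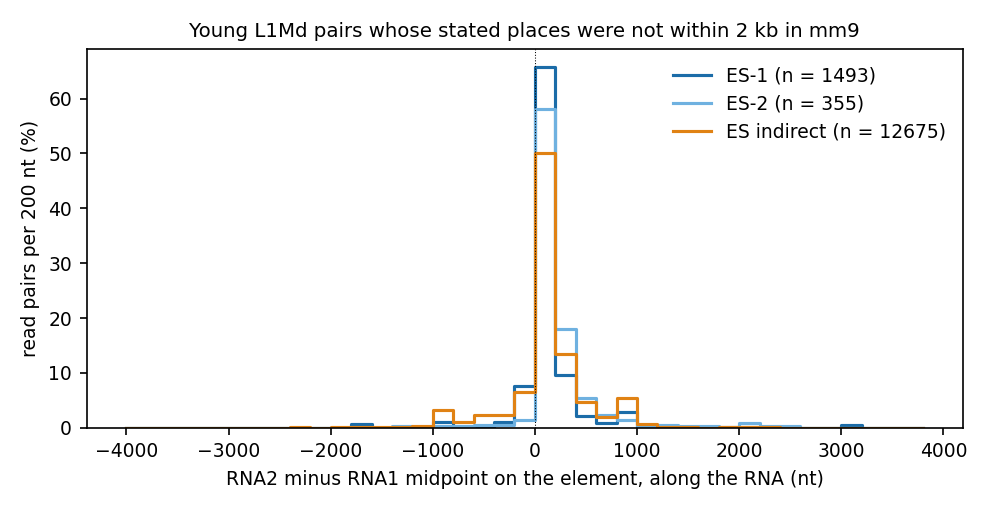
Share of read pairs (%) by the distance between the midpoints of RNA2 and RNA1 on the element, in 200 nt steps, for young L1Md pairs not within 2 kb in mm9 and in the same element sense; n is the number of pairs with both fragments placed, and positive values mean that RNA2 lies 3′ of RNA1. Midpoints lie farther apart than the nearest ends, so the shares within 200 nt are smaller here than those in the text. The step from 0 to 200 nt is the highest in ES-1, ES-2 and ES indirect.

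The distant pairs joined few names. Of 1980 pairs in ES-1 with both fragments supported and not within 2 kb, L1Md_A with L1Md_A made up 21.2%, L1Md_T with L1Md_T 14.7%, L1Md_A with L1Md_T 13.7% and L1Md_F2 with L1Md_F2 9.80%. In ES-2 the same combinations were 12.03%, 17.3%, 9.21% and 11.7% of 532 pairs. Of 203 distant pairs of a young with an older LINE fragment in ES-1, 135 had both fragments placed on a young reference copy, and the others give no value here. Of the placed pairs 94.8% were in the same sense in ES-1, as were 92.9% of 42 in ES-2 and 97.8% of 1031 in ES indirect, and 77.8%, 73.8% and 68.8% were in the same sense and within 200 nt.

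Protein-coding genes were the next partner class of young families. They supplied 15.3% of the partners of supported young ends in ES-1 and 15.2% in ES-2, with 22.8% in ES indirect and 18.6% in MEF, against 20.8%, 27.0%, 73.4% and 36.0% of all supported ends. For older families the shares were 5.79%, 5.51%, 8.43% and 9.05%, but near LINE–LINE pairs enter these totals. Without pairs within 2 kb the young families had 18%, 19.8%, 26.5% and 21.4% and the older ones 19.5%, 22.0%, 37.2% and 20%, so that older families were not lower in the ES libraries. SnoRNAs, which guide the modification of ribosomal RNA, supplied 9.31% and 2.49% of the partners of young ends in ES-1 and ES-2, against 54.7% and 45.9% of all ends. LincRNAs supplied 0.92%, 1.40%, 1.29% and 1.36%, and snRNAs of the spliceosome at most 0.44%.

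Most gene ends joined to young families were stated to lie in introns. With both fragments supported, 831 of 910 protein-coding partners in ES-1 were intronic, or 91.3% (89.3 to 93.0). The share was 92.9% of 238 in ES-2 (88.9 to 95.5), 95.5% of 10797 in ES indirect (95.1 to 95.9) and 95.1% of 41 in MEF (83.9 to 98.7). Over all protein-coding ends of the same kind the intron share was 28.4%, 47.8%, 76.4% and 47.8%. The partners of older families were intronic in 73.7% (69.1 to 77.8), 63.2% (54.7 to 70.9), 84.2% (83.1 to 85.3) and 85.7% (65.4 to 95.02). As deposited, without the restriction to supported fragments, introns held 55.8%, 58.7%, 85.7% and 85.9% of the gene partners of LINE, against 50.2%, 62.0%, 76.0% and 83.0% of all gene ends.

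Most intronic partners of young ends carried L1 sequence themselves, so the gene and strand named for them are as uncertain as the coordinate. Of 831 intronic partners of supported young ends in ES-1, 87.4% aligned to a young reference copy (84.9 to 89.5), as did 81.9% of 221 in ES-2 (76.3 to 86.4), 80.1% of 10316 in ES indirect and 32 of 39 in MEF. Exonic and UTR partners did so in 3.7%, 5.9% and 6.5% in ES-1, ES-2 and ES indirect. For intronic partners of older families the share was 31.6%, 28.6% and 30.1%. A search for 21-base words of young copies, made without alignment, gave the library background. Among supported intronic ends in read pairs with a LINE end, 46.2%, 25.3%, 53.6% and 16.1% held such a word, and among those in read pairs with no LINE end 3.26%, 2.81%, 2.53% and 1.96% did. LincRNA partners of young ends aligned to a young copy in 87.3% of 55 cases in ES-1 and 86.4% of 22 in ES-2.

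On the element, distant young–intron pairs resembled the young–young pairs. Both fragments had the same element sense in 95.6% of 712 placed pairs in ES-1 and 91.2% of 171 in ES-2, with 95.8% of 8060 in ES indirect, and 77.1%, 71.9% and 66.0% were within 200 nt of each other. An origin of both fragments in the same uncut RNA was not tested for these pairs either.

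In ES-1 and ES indirect the intronic partners of young ends were on the strand of the gene less often than introns at large. Partners of young ends were sense to the named gene in 46.5% of 828 cases in ES-1 (43.1 to 49.9) and 51.6% of 221 in ES-2 (45.0 to 58.1), with 58.6% of 10269 in ES indirect (57.6 to 59.6). All supported intronic ends were sense in 70.5%, 55.8% and 91.7%, so the ES-2 interval includes its library value. The partners of older families lay at 60.8% (55.0 to 66.2), 57.1% (46.5 to 67.2) and 81.5% (80.2 to 82.8). Exonic and UTR partners of young ends were sense in 94.9% of 79 cases in ES-1 and 76.5% of 17 in ES-2, with 94.4% of 478 in ES indirect. Reading gene and element strand together, sense to the element with antisense to the gene was the commonest combination in ES-1, with 44.3% of 723 fragments, and in ES indirect, with 37.5% of 8225. In ES-2 antisense to the element with sense to the gene was the commonest, with 34.3% of 181, and the former combination had 31.5%.

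**Figure D5:**
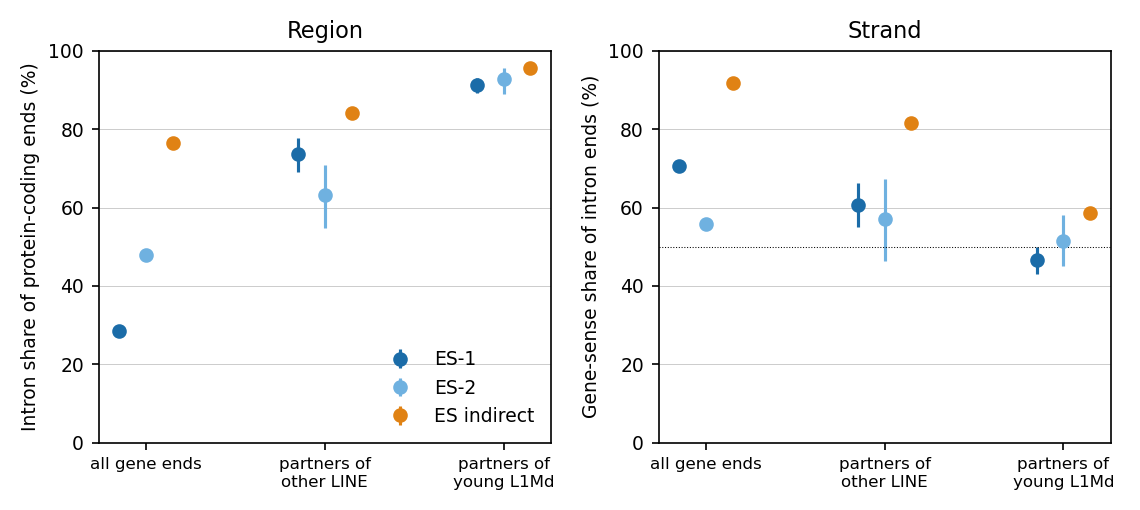
Intron share of protein-coding ends (left, %) and gene-sense share of intronic ends (right, %), both fragments supported, with 95% Wilson intervals, for all gene ends and for the partners of older and of young LINE ends. The intron share rises from all gene ends to the partners of young L1Md in ES-1, ES-2 and ES indirect, and the gene-sense share of the partners of young L1Md lies between 46.5% and 58.6%, around the dotted line at 50%.

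To ask which pairs of names were joined more often than their frequencies predict, ES-1 and ES-2 were merged, as in the study, and each pair of RNAs with a between-RNA read pair was put to a one-sided Fisher's exact test. Ribosomal and unannotated ends, pairs within 1 RNA name and pairs within 2 kb were left out. Of 227779 pairs of names tested, 14453 were called, which is 6.35%. Pairs with a LINE family numbered 19640, of which 621 were called, or 3.16%, below that background in these merged data. Of the 621, 155 had read pairs in both ES-1 and ES-2, and 108 were also called from supported fragments. The test counts read pairs and carries no replicate error. On simulated ES merged data it recovered 150 of 200 pairs raised by 3 read pairs and 199 of 200 raised by 20, but it also called between 226 and 229 of 301356 pairs that had not been raised. These outnumbered the recovered pairs at every level, so an adjusted p under 0.05 did not hold false calls to that share. Raised pairs were drawn only from RNAs with many ends. Adjusting over every possible pair of names called 0 of the pairs that had not been raised. It recovered 0 of the 200 raised by 3 read pairs and 194 of those raised by 20. In the real data it left 152 LINE pairs called, or 0.774%, against 2.46% of all pairs. Without ES-1, 150 LINE pairs were called, or 1.30%, against 1.27% of all pairs. Without ES-2, 572 were called, or 5.45%, against 10.5%. In ES indirect alone the LINE share was 6.78% against 6.81%, and in MEF alone 2.98% against 2.88%. In the merged data with equal coordinates collapsed it was 0.825% against 0.895%. The LINE share thus lay well below the background only in settings with ES-1.

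By partner class, LINE–LINE pairs of different family names were called in 33 of 398 cases, or 8.29%. Protein-coding genes were called in 355 of 11519, snoRNAs in 170 of 4879, lincRNAs in 7 of 479 and snRNAs in 6 of 215. The supported fragments alone gave 152 called of 2557 LINE pairs, or 5.94%, where 8018 of all 70548 pairs were called, or 11.4%. Of those 152, 46 were LINE–LINE pairs, 52 were with protein-coding genes and 43 with snoRNAs.

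L1Md_A with L1Md_T had the most read pairs of all called LINE pairs. They were joined by 333 read pairs in ES merged, 282 in ES-1 and 51 in ES-2, of which 320 had both fragments supported, and the count was 11.2 times the 29.6 predicted (Fisher's exact test, Benjamini-Hochberg adjusted p = 3.93e-233). ES indirect held 1610 of this pair and MEF 10. Among LINE–LINE pairs L1Md_F2 with L1Md_T followed with 149 read pairs, 2.18 times the prediction, and L1Md_A with L1Md_F2 with 93, 9.55 times the prediction. These 3 were the LINE–LINE pairs with the most read pairs in both ES libraries, and all 3 were called in ES indirect and from supported fragments. Over supported fragments alone the ratios to the prediction were higher, at 52.3 for L1Md_A with L1Md_T, 28.7 for L1Md_F2 with L1Md_T and 19.6 for L1Md_A with L1Md_F2, so the order of the last pair of ratios turned. L1Md_F2 with L1Md_T was not called in ES-2 alone. Pairs from the same RNA were left out of the test only by name and stated distance, and L1Md names can be uncertain. How many read pairs between L1Md names came from the same L1 RNA was not tested.

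The leading pairs with genes rested on fragments that were not supported. Lx2A with Ptpn5, a protein tyrosine phosphatase, had 181 read pairs, 180 of them in ES-2, and 0 of the 181 were supported, which allows up to 1.66%. L1Md_T with Trim30a, a TRIM-family protein of innate immunity, had 84, 42 and 56 read pairs in the ES libraries. None of its 126 ES merged read pairs had both fragments supported, which allows up to 2.38%, against 2 of the 56 in ES indirect. L1Md_F3 with Slc29a3, a nucleoside transporter, had 2 in ES-1 and 25 in ES-2, none supported. Without ES-2 the pairs of Ptpn5 and Slc29a3 were no longer called. Among lincRNAs the pairs seen in both ES libraries were L1Md_F3 with D930049A15Rik, with 5 read pairs, and with 4933404O12Rik, with 4. The former was called from neither ES library alone and the latter not without ES-2. No called snRNA pair was seen in both.

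The leading snoRNA pairs also rested on fragments that were not supported. L1Md_F3 with Snord13 had 70 ES-1 and 35 ES-2 read pairs, L1Md_T with SNORD30 had 85 and 6, L1_Mur3 with SNORA63 had 70 and 21, and L1Md_F3 with SNORA13 had 67 and 20. Of these 4 pairs 1 read pair of L1Md_T with SNORD30 had both fragments supported. L1_Mur2 with SNORA40 had 169 read pairs, all in ES-1, of which 1 was supported. Neither this pair nor L1Md_T with SNORD30 was called without ES-1. From supported fragments the leading snoRNA pair was L1Md_A with snoU90, with 30 read pairs and 3.35 times the prediction (Benjamini-Hochberg adjusted p = 5.02e-07 by Fisher's exact test).

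Abundant noncoding RNAs and genes known to act on L1 were taken from lists. U1, the snRNA that recognises the 5′ splice site, was joined to LINE ends in 419, 107, 411 and 11 read pairs, of which 23, 4, 137 and 0 had both fragments supported. U2, which pairs with the branch point, was joined in 296, 59, 153 and 6, with 16, 3, 31 and 0 supported. The other spliceosomal RNAs had fewer, with 9, 0, 7 and 0 supported for U4, 8, 0, 17 and 0 for U5 and 1, 2, 19 and 0 for U6. 7SK, which holds a transcription elongation factor inactive, had 2, 0, 10 and 0 supported, and Malat1, a nuclear lincRNA, had 5, 0, 11 and 0. U7 was joined in 4, 0, 2 and 0 read pairs and Meg3 in 0, 3, 2 and 0, with none supported. Y_RNA had 3, 1, 1 and 1 ends, with 0 joined.

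Small nucleolar RNAs on the list are deposited behind a gene identifier, often at several near-identical copies, so the copy named is uncertain and names were summed. Snora73a and Snora73b, H/ACA snoRNAs also known as U17, were among the most abundant. Snora73a was joined to LINE ends in 571, 152, 13 and 53 read pairs, or 10.8, 17.9, 5.77 and 33.3 per 1000 of its ends, with 32, 4, 1 and 0 supported. LINE made up 1.39%, 2.60%, 2.17% and 4.90% of all ends, so these rates lay below the LINE share of every library, as did those of Snora73b, U1, U2 and U3. Snora73b was joined in 634, 186, 5 and 44, with 44, 7, 0 and 0 supported, and copies named SNORA73 alone in 222, 74, 6 and 61, with 10, 4, 0 and 0. U3, the snoRNA of the first cuts of the ribosomal precursor, was joined in 165, 34, 290 and 8, with 18, 1, 54 and 0 supported. For RNase MRP RNA the counts were 65, 12, 24 and 5, with 1, 0, 10 and 0 supported. Entries named U13 had 1, 2, 1 and 0, of which the 1 in ES indirect was supported. Entries deposited under Snord13, the gene symbol of U13, were not in that count. L1Md_F3 alone was joined to Snord13 in 70 ES-1 and 35 ES-2 read pairs. In most of these read pairs at least 1 fragment was thus not supported. A search by name found no entry for 7SLRNA, Rpph1, Terc, Neat1, Xist or Kcnq1ot1, which does not show that these RNAs were absent.

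The genes that act on L1 elements or bind their RNA gave few supported read pairs. Trim28, the corepressor of many repeats, was joined to LINE in 4, 3, 4 and 0 read pairs, with 1 supported, in ES indirect. Safb, a nuclear RNA-binding protein, was joined in 4, 15, 45 and 2, with none supported. Apobec3, a cytidine deaminase that restricts retroelements, had 3 supported read pairs in ES indirect and none elsewhere. Hnrnpu, an RNA-binding protein of the nuclear matrix, had 1 supported read pair in ES-1 and 1 in ES indirect. Uhrf1, Mov10, Hnrnpl and Safb2 had 1 each in ES indirect, and no other gene of this list had any.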

How the data were processed

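The deposited files hold 1 line per read pair, with coordinates, strand, sequence, type, name and region of RNA1 and RNA2; they hold no measured value beyond the coordinates, so the authors' unit is a position and counts of read pairs were made here. Per the study's methods, the authors removed duplicates by random barcode, located the linker, split the fragments and kept uniquely mapping ones (mm9). The submitters' processing notes name TopHat2 2.1.1. Names were used as deposited. The strand of RNA2 was turned over, since exonic RNA2 ends otherwise ran against their genes.

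Sequences were compared with NCBIM37 (mm9) and GENCODE vM1, with bedtools 2.31.1 and blastn 2.17.0, and intervals were made with SciPy 1.17.1. The members, lists and classes were chosen with earlier results of these data known. Families named are the 10 with most ends in ES merged and all L1Md names, pairs named are the 10 called pairs with most read pairs and the 3 of each partner class with most in both ES libraries, and loci are the 5 busiest 1 kb bins; others were named after their values were seen. The pair test was tested on simulated data. Called pairs needed an adjusted p under 0.05 and at least 3 read pairs. Total read pairs per library set the counting precision. Both samples from brain were not used here.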

Additional observations from a re-analysis of the deposited data

How the results depend on the processing

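Values are means of ES-1 and ES-2, and the spread is their SD. The LINE share of read pairs was 3.83%, with a range of 2.63% to 5.03% when either replicate was left out, and 7.88% among read pairs with no ribosomal end. The young share of LINE ends was 38.3% (33.0% to 43.5%). It moved to 53.0% with fragments of at least 20 nt and no linker piece, to 51.7% with fragments that match mm9, and to 19.7% with L1Md_A and L1Md_T alone as young. Protein-coding genes were 10.8% of partners (8.31% to 13.2%) and 24.7% of non-ribosomal partners. Self-family pairs were 63.2% of LINE–LINE read pairs (56.2% to 70.2%), 35.3% of those not within 2 kb and 76.6% of supported ones. The intron share of gene partners was 57.3% (55.8% to 58.7%), 54.6% where both fragments match mm9 and 84.1% where both are supported. Called LINE pairs numbered 621, or 3.16% against 6.35% of all pairs. They were 150 without ES replicate 1 (1.30% against 1.27%) or 572 without ES replicate 2 (5.45% against 10.5%). They fell to 240 with at least 5 read pairs (1.22% against 2.56%) and 162 with equal coordinates collapsed (0.825% against 0.895%). Fragments that match mm9 gave 389 (3.84% against 8.26%). Both fragments supported gave 152 (5.94% against 11.4%), as did the adjustment over every possible pair (0.774% against 2.46%). ES indirect alone had 1331 (6.78% against 6.81%) and MEF alone 377 (2.98% against 2.88%). Over all read pairs, those with a supported LINE end were 0.352% (ES-1) or 0.315% (ES-2). Supported LINE–LINE pairs not within 2 kb were self-family in 54.6% and 50.2%. Of the alternatives listed, the others moved no value by more than the spread (for called pairs, by over 1.5 times). For the shares, leaving out 1 replicate could not pass the spread by construction, so it is no test of stability. The cause of the moves was not tested, beyond what fewer read pairs or another denominator brings by construction. Supported fragments and the adjustment over every possible pair were added after seeing the data. No paired analysis was possible because ES indirect and MEF have 1 library each.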
